A study of Homo sapiens with 8 samples.

Results

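Activated Notch1 was expressed in PC3 and LNCaP human prostate cancer cells, and its effect averaged over both lines was measured for each probe set as the mean of the PC3 change and the LNCaP change. PC3 is an androgen-independent line from a bone metastasis, and LNCaP is an androgen-responsive line from a lymph node metastasis. All 8 of the 8 arrays of the series entered the comparison, with 2 arrays in each of 4 groups: PC3 with green fluorescent protein (GFP) as the control, PC3 with activated Notch1, LNCaP with GFP, and LNCaP with activated Notch1. Labelled RNA was hybridised to Affymetrix U95Av2 arrays, on which a set of short probes stands for a transcript. Of 12558 probe sets tested, 1520 (1217 genes) were called on the averaged effect at an adjusted p under 0.05 with limma and had the same sign in both lines, and they are called the common response here. The averaged effect and the sign of each line's change come from the same 8 arrays, so the shared sign is a way to pick out members and not a further test. The sources used here do not state how activated Notch1 was delivered for these arrays, for how long, or whether the cells were 1 clone. The methods describe a pair of chips for each sample, so the spread that the p-values rest on may be technical.

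HES1, a basic helix-loop-helix repressor, is the best known direct target gene of Notch1. Such targets carry sites for CSL, also called RBPJ, a transcription factor that recruits corepressors until the intracellular domain of Notch1 joins it and brings in coactivators such as Mastermind. An activated form of Notch1 is one that acts without a ligand, because the domain no longer has to be freed by the protease ADAM10 and by gamma-secretase. In the prostate the pathway takes part in the balance of basal and luminal epithelial cells, and it has been described as both promoting and restraining growth.

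The averaged effect was called higher for 1046 probe sets (8.33% of those tested) and lower for 838 (6.67%). Of these, 852 rose with the same sign in both lines (6.78% of those tested, 676 genes) and 668 fell (5.32%, 543 genes). The other 364 were called on the average with changes of opposite sign in the lines, where the sign of a small change says little. Over all tested probe sets 78 were called in each line with opposite signs. Only a minority was called in each line alone with the same sign: 129 probe sets were higher in both (1.03%, 111 genes) and 43 lower in both (0.342%, 35 genes). A further 862 members of the common response were called in LNCaP and not in PC3, 242 in PC3 and not in LNCaP, and 244 in neither line alone. The smaller of the lines' changes was under 0.1 on the log2 scale for 127 of the 852 rises and 128 of the 668 falls, so for these the shared sign says little about the weaker line. Over all tested probe sets 44.7% had the same sign in both lines, and the correlation of the lines' changes was r = 0.14 and rho = -0.02 (n = 12558 probe sets, which are not independent; each line has arrays of its own). The median change over them was -0.08 in PC3 and 0.04 in LNCaP. With each array centred on its median, or after quantile normalization of all arrays, the share with the same sign was 48.9%. With values under log2 5 raised to log2 5, a range in which readings depend on the array background, the counts were 407 common rises and 311 common falls, and 51 higher and 20 lower in each line. Leaving out PC3 Notch1 replicate 1 or 2 gave 565 or 560 common rises and 407 or 396 falls, leaving out LNCaP Notch1 replicate 1 gave 546 rises, and leaving out LNCaP Notch1 replicate 2 gave 410 falls. The averaged calls were 672 higher without PC3 Notch1 replicate 2 or without LNCaP Notch1 replicate 1, and 503, 484 and 497 lower without PC3 Notch1 replicate 1, PC3 Notch1 replicate 2 and LNCaP Notch1 replicate 2. An additive model of line and Notch1, which leaves the difference between lines in the residual, called 203 higher and 90 lower. The numbers higher and lower in each line ran from 48 to 224 and from 18 to 61 as 1 array was left out, with the lowest values without PC3 Notch1 replicate 1 and the highest without PC3 GFP replicate 2. They were 225 and 91 with replicate number as a block.

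**Figure D1:**
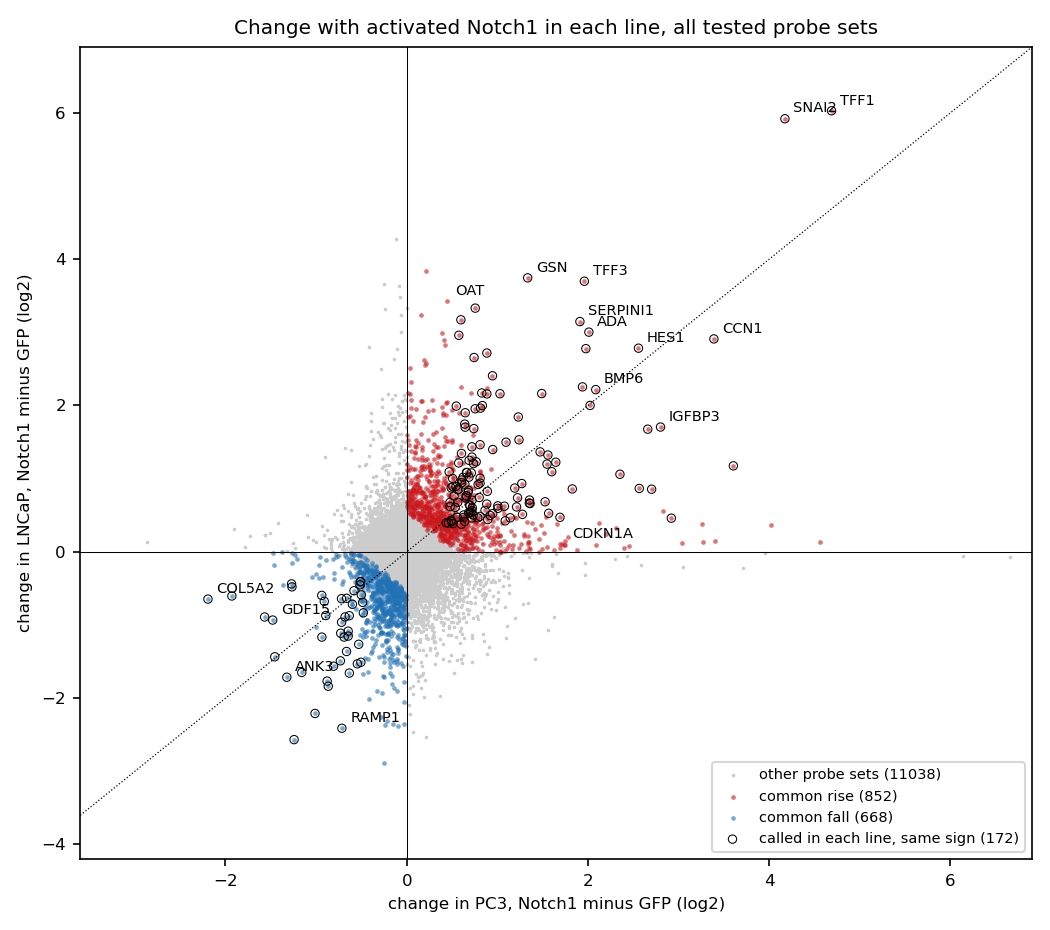
Each point is 1 of the 12558 tested probe sets, with its log2 change (Notch1 minus GFP) in PC3 on the x axis and in LNCaP on the y axis; red marks the 852 common rises, blue the 668 common falls, and circles the 172 called in each line with the same sign. The dotted line marks equal change, 1 probe set lies beyond the axes, and TFF1 and SNAI2 stand farthest along the diagonal at 4.69 and 4.17 in PC3 and 6.03 and 5.92 in LNCaP.

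The typical member moved by less than 2-fold. The median averaged change was 0.52 for common rises (0.44 in PC3, 0.55 in LNCaP) and -0.46 for common falls (-0.27 in PC3, -0.65 in LNCaP), beside a median of -0.03 over all tested probe sets. At least a 2-fold change on the average was seen for 111 common rises and 35 common falls, and a 2-fold change in both lines for 26 rises (23 genes) and 6 falls (4 genes). The change was larger in LNCaP for 507 of the 852 rises and 526 of the 668 falls. The difference between the lines was itself called for 473 of the 1520 members, beside 14.2% of all tested probe sets. Both Notch1 arrays lay outside both GFP arrays in both lines for 630 of the 852 rises and 462 of the 668 falls. Over all tested probe sets this held upward for 7.85% and downward for 7.18%, and it was not independent of the call.

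The 14 largest shared rises, ranked by the smaller of the lines' changes, were TFF1, SNAI2, CCN1, HES1, BMP6, ADA, TSPAN8, TFF3, SERPINI1, IGFBP3, CXCR4, PLSCR1, GSN and SPARC. All 14 were called in each line, and these line calls were kept whichever array was left out. With the log2 5 floor all 14 kept their averaged call and 11 kept the call in each line (in PC3, CXCR4 had an adjusted p of 0.0703, PLSCR1 0.0924 and GSN 0.0561). No PLSCR1 reading was under log2 5, and its changes were the same with the floor.

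HES1 was read at 7.92 and 8.08 on the PC3 GFP arrays and at 10.51 and 10.61 on the PC3 Notch1 arrays (log2 expression). In LNCaP it was 8.41 and 8.47 with GFP, and 11.22 and 11.23 with Notch1. All Notch1 arrays lay above all GFP arrays, across the lines as well as within them. HES1 rose 6.37-fold on the average (log2 2.67, SE 0.08, adjusted p = 3.65e-08), by 2.56 in PC3 and 2.78 in LNCaP. The lines' changes differed by 0.23 (95% interval -0.14 to 0.59, adjusted p = 0.36).

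The HES1 promoter is shown because it carries the CSL core that the canonical pathway acts through, and the promoters of CXCR4, GSN and SMAD3 because, among SMAD3 and the 14 largest shared rises, they were the others with a window that held it. Each window is 300 bases of RefSeq sequence on GRCh38.p14, from 250 bases before to 50 after a gene start, 5′ to 3′ on the strand of the gene. Capitals mark GTGGGAA or its reverse complement TTCCCAC, the motif searched on both strands. HES1 lies at chr3:194135898-194136197 (+), with the motif 85 bases before the start. CXCR4 lies at chr2:136116186-136116485 (-) and GSN at chr9:121286299-121286598 (+), with the motif 222 and 56 bases before the start. SMAD3 lies at chr15:67125492-67125791 (+), with the motif 218 bases before the start. CXCR4, GSN and SMAD3 each have further start sites, whose windows did not hold these letters.
HES1: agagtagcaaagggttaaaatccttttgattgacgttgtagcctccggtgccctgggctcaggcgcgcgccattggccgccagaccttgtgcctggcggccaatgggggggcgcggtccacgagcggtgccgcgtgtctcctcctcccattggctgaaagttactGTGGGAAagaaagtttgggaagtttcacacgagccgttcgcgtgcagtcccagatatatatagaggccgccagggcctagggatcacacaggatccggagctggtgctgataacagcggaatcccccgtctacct
CXCR4: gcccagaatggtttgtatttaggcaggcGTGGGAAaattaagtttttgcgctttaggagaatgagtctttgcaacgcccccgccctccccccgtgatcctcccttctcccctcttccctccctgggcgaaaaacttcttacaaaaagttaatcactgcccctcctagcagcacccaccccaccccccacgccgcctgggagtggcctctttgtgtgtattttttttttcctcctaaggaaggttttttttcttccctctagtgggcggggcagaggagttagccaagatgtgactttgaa
GSN: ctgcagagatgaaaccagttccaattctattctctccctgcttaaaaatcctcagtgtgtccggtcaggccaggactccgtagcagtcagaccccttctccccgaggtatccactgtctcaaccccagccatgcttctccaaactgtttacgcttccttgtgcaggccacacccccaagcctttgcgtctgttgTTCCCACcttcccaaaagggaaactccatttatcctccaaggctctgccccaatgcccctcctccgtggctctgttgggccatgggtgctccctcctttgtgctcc
SMAD3: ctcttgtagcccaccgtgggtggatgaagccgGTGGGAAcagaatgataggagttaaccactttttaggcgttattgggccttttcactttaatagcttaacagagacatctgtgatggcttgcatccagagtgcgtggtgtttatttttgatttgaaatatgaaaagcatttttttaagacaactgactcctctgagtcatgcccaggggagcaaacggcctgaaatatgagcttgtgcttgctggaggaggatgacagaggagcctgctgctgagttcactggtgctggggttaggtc

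Among genes with a promoter window, the motif was present in 58 of 567 genes with a common rise (10.2%) and 39 of 434 with a common fall (8.99%). It was present in 11 of 89 genes higher in each line (12.4%) and 3 of 27 lower in each line (11.1%). Without MAP2K5, whose fall was that of a single probe set, 38 of 433 genes with a common fall and 2 of 26 lower in each line held it. Of all genes with a window 7.62% held it, and of those measured on the array 8.01%. Of the 14 largest shared rises, 10 had a window and 3 of them held the motif, and of the 13 largest shared falls other than MAP2K5, 11 had a window and 1 held it. A gene counted as holding the motif if any of its windows did, so genes with more start sites had more windows to match. These shares are a description of letters in windows of 300 bases and were not tested.

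TFF1, a trefoil peptide of mucus-secreting epithelium, gave the largest shared rise. It was 7.56 and 7.02 on the PC3 GFP arrays against 12.07 and 11.88 with Notch1, and 6.05 and 6.16 on the LNCaP GFP arrays against 12.18 and 12.08 with Notch1. The lines started apart and reached nearly the same reading with Notch1, although no source states whether both lines were normalized together, which limits any level set across them. The averaged rise of TFF1 was 41.0-fold (log2 5.36, SE 0.12, adjusted p = 2.60e-09). TFF3, a related trefoil peptide, was read at 7.02 and 6.84 in PC3 GFP, 9.12 and 8.66 in PC3 Notch1, 6.0 and 6.41 in LNCaP GFP, and 9.99 and 9.81 in LNCaP Notch1. It rose 7.11-fold on the average (log2 2.83, adjusted p = 5.08e-07). The 3 other TFF3 probe sets gave smaller averaged values of 0.82, 0.19 and 0.13, of which the first was a common rise, and the mean of the gene's probe sets rose by 0.99 (adjusted p = 2.44e-05). TFF2 rose by 1.21 in PC3 and 0.61 in LNCaP.

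SNAI2, the zinc-finger repressor Slug of mesenchymal transition, was at background with GFP, at 1.18 and 2.30 in PC3 and 1.45 and 0.98 in LNCaP. With Notch1 it was read at 5.95 and 5.88 in PC3 and 7.25 and 7.02 in LNCaP, above every GFP array. Its averaged change was 5.05 (33.0-fold, SE 0.21, adjusted p = 4.10e-07), but all GFP readings were under log2 5, and with these raised to log2 5 the change was 1.52 (2.88-fold, adjusted p = 0.00126), by 0.92 in PC3 and 2.13 in LNCaP. SPARC, a matrix protein bound by collagen, rose by 1.56 in PC3 and 1.32 in LNCaP. CCN1, a matrix-associated protein first known as an immediate early gene, was 4.23 and 4.45 in PC3 GFP, 7.75 and 7.71 in PC3 Notch1, 5.20 and 5.60 in LNCaP GFP, and 8.30 and 8.33 in LNCaP Notch1. The GFP and Notch1 arrays did not overlap across the lines either, and CCN1 rose 8.88-fold on the average (log2 3.15, SE 0.10, adjusted p = 5.74e-08). Its line difference of -0.48 (95% interval -0.94 to -0.02) did not pass adjustment (adjusted p = 0.144). Both PC3 GFP readings were under log2 5, and with these raised to log2 5 the changes were 2.73 in PC3 and 2.91 in LNCaP, a difference of 0.18 in the other direction (adjusted p = 0.72).

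**Figure D2:**
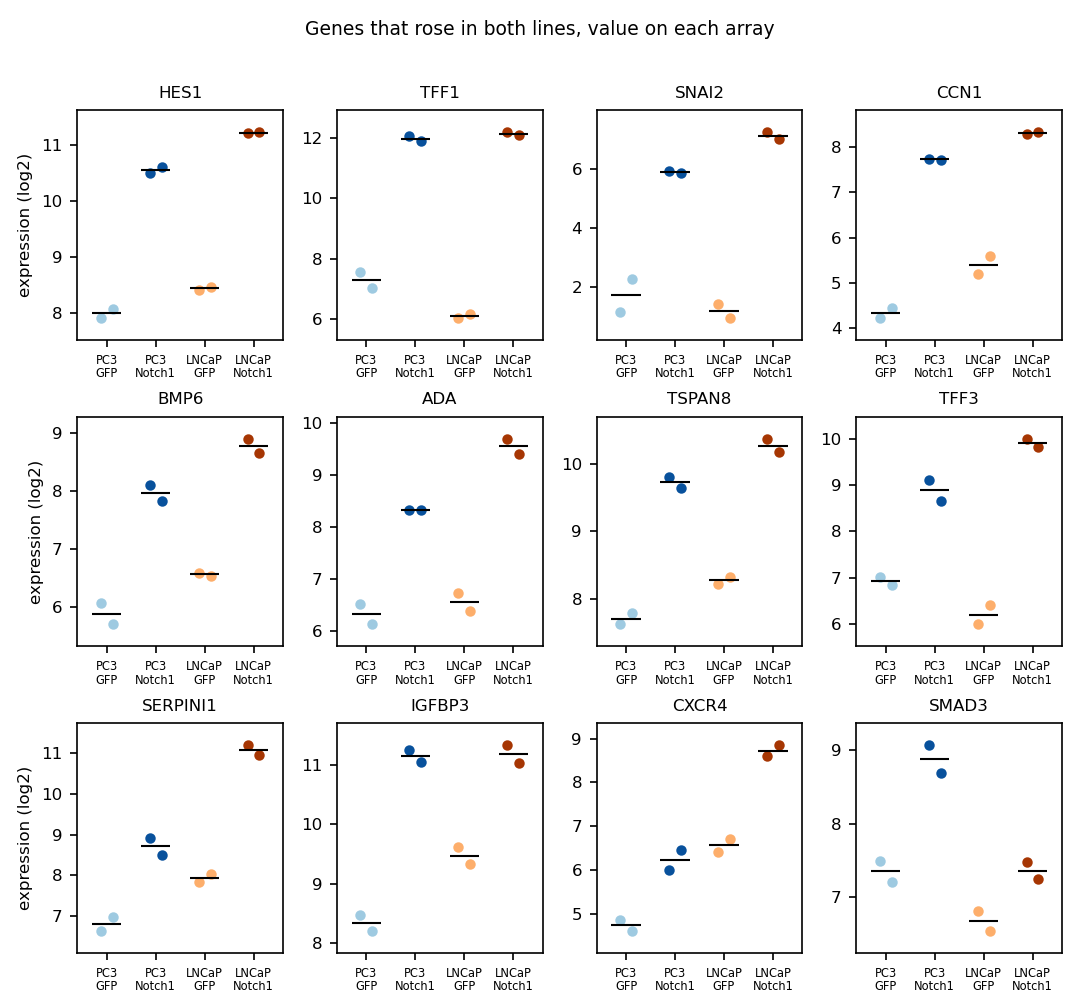
Log2 expression (y axis, a scale for each gene) of 12 genes with a common rise on each of the 8 arrays, by group (x axis); points are arrays and horizontal lines are means of 2 arrays. In each of the 12 genes both Notch1 arrays lie above both GFP arrays of the same line, with HES1 and TSPAN8 shifted by similar amounts in both lines and TFF1, TFF3 and SERPINI1 shifted farther in LNCaP.

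Signals that act outside the cell and their receptors made up another part of the shared rises. BMP6, a bone morphogenetic protein, was 6.07 and 5.71 in PC3 GFP, 8.11 and 7.83 in PC3 Notch1, 6.59 and 6.54 in LNCaP GFP, and 8.91 and 8.66 in LNCaP Notch1. It rose 4.44-fold on the average (log2 2.15, SE 0.11, adjusted p = 9.70e-07), and its other probe set gave 1.94 in PC3 and 2.25 in LNCaP. IGFBP3, which binds insulin-like growth factors, was 8.48 and 8.21 in PC3 GFP, 11.25 and 11.04 in PC3 Notch1, 9.62 and 9.34 in LNCaP GFP, and 11.33 and 11.03 in LNCaP Notch1. The Notch1 readings of the lines overlapped while the GFP readings did not, so the rise was larger in PC3 (2.80) than in LNCaP (1.71), a called difference of -1.10 (adjusted p = 0.00928). CXCR4, the receptor of the chemokine CXCL12, was 4.86 and 4.61 in PC3 GFP, 6.0 and 6.45 in PC3 Notch1, 6.41 and 6.71 in LNCaP GFP, and 8.60 and 8.85 in LNCaP Notch1, a 3.55-fold averaged rise (log2 1.83, adjusted p = 7.81e-06).

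Enzymes, inhibitors and membrane proteins completed the list of 14. ADA, adenosine deaminase of the purine salvage pathway, rose by 2.01 in PC3 and 3.0 in LNCaP, and its other probe set by 1.98 and 2.78. TSPAN8, a tetraspanin of epithelial cell membranes, was the rise closest to equal in the lines, at 2.02 and 2.00 (difference -0.02, 95% interval -0.43 to 0.38). SERPINI1, the protease inhibitor neuroserpin, rose 3.76-fold in PC3 and 8.86-fold in LNCaP, and GSN, the actin-severing protein gelsolin, 2.52-fold and 13.4-fold. GSN had the largest difference between lines among the 14 (2.41, adjusted p = 0.000114). All its GFP readings were under log2 5, and with the floor its log2 changes were 1.07 in PC3 and 3.09 in LNCaP, a difference of 2.03. PLSCR1, a phospholipid scramblase, rose by 1.47 and 1.37 with a difference of -0.11 (95% interval -0.77 to 0.56).

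Among 22 measured genes of the Notch pathway, HES1 included, 4 were common rises (18.2%) and 2 common falls (9.09%). The shares over all 8226 genes were 7.16% and 5.64%, and the list median was 0.08. The rises were HES1, ADAM10, the protease that makes the first cut of a Notch receptor bound by ligand, SPEN, a corepressor of CSL, and NCSTN, a subunit of gamma-secretase. ADAM10 rose by 0.69 in PC3 and 1.25 in LNCaP, with 0.72 on the average from a further probe set and 0.08 from another, and SPEN by 0.70 and 0.63. NCSTN gave 0.01 in PC3 and 0.63 in LNCaP. The falls were JAG2, a ligand, at -0.26 and -1.70, and PSEN2, a catalytic subunit of gamma-secretase, at -0.35 and -0.84. JAG1, another ligand, differed by probe set: one rose by 1.24 in PC3 and 1.53 in LNCaP, and the other had an averaged change of 0.28 that missed the threshold (adjusted p = 0.0544). JAG1, JAG2, SPEN, NCSTN and PSEN2 were chosen for naming after their values were seen.

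Of 33 measured TGF-beta and SMAD genes, 8 were common rises and 1, BAMBI, a decoy receptor that dampens the signal (named after its values were seen), was a common fall, beside 7.16% and 5.64% of all genes. Of the 33, 2 were called higher in each line, beside 92 of all 8226 genes, and the list median was 0.04 (0.01 in PC3, 0.12 in LNCaP). SMAD3, the transcription factor that carries TGF-beta signals to the nucleus, was 7.49 and 7.21 in PC3 GFP, 9.07 and 8.69 in PC3 Notch1, 6.81 and 6.54 in LNCaP GFP, and 7.47 and 7.24 in LNCaP Notch1. Both Notch1 arrays lay above both GFP arrays in each line, although the LNCaP Notch1 readings were within the range of PC3 GFP. SMAD3 rose 2.15-fold on the average (log2 1.11, SE 0.12, adjusted p = 0.000146), by 1.53 in PC3 and 0.68 in LNCaP, and its 3 other probe sets were common rises too (1.03, 0.80 and 0.31). The line difference was called at -0.84 (adjusted p = 0.0404), and ran from -1.03 to -0.65 as 1 array was left out. In the limma fit with the floor these changes were the same, but the adjusted p was 0.122 in LNCaP and 0.16 for the difference. TGIF1, a corepressor of SMAD proteins, rose by 0.61 and 0.94.

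The largest shared falls were smaller than the shared rises, apart from a single probe set. The 14 genes were MAP2K5, ANK3, CLDN4, GDF15, SLC27A2, UNC13B, PKP4, RAMP1, CCDC85B, KIDINS220, CLDN3, COL5A2, PREPL and MINAR1. All 14 kept their averaged call under all 16 alternative settings, the log2 5 floor and each array left out among them. With the floor 6 of the 14 kept the call in each line, and in PC3 the adjusted p was 0.163 for PREPL, 0.13 for CCDC85B, 0.12 for CLDN3 and 0.363 for SLC27A2, whose PC3 change was then -0.57. PREPL, CCDC85B and CLDN3 had no reading under log2 5, and their changes were the same with the floor. The calls in each line were kept under every omission by 4 of them, MAP2K5, ANK3, CLDN4 and GDF15. Of the rest, 8 lost their PC3 call and 3 their LNCaP call in some omission, with adjusted p-values up to 0.217 (PREPL, without PC3 Notch1 replicate 2). Omissions that did so were those of PC3 GFP replicates 1 and 2, PC3 Notch1 replicates 1 and 2, LNCaP GFP replicate 1 and LNCaP Notch1 replicates 1 and 2.

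MAP2K5 is annotated to 5 probe sets, and 1 of them gave by far the largest averaged change of these data. It was 12.75 and 12.79 in PC3 GFP, 4.05 and 2.94 in PC3 Notch1, 14.10 and 14.11 in LNCaP GFP, and 4.46 and 5.08 in LNCaP Notch1. On both LNCaP GFP arrays it gave the highest reading of any probe set, and with Notch1 3 of the 4 arrays read under log2 5. Its averaged change was -9.30 (SE 0.21, adjusted p = 2.60e-09), or -8.42 with the log2 5 floor. The other 4 probe sets of the gene, which encodes the kinase MEK5, gave averaged changes of 0.27, -0.06, 0.12 and 0.07, and none was called on the average. In LNCaP 2 of the 4 were called higher (0.47, adjusted p = 0.021, and 0.37, adjusted p = 0.0451). The fall is therefore that of 1 probe set and is not given as a fall of MAP2K5.

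**Figure D3:**
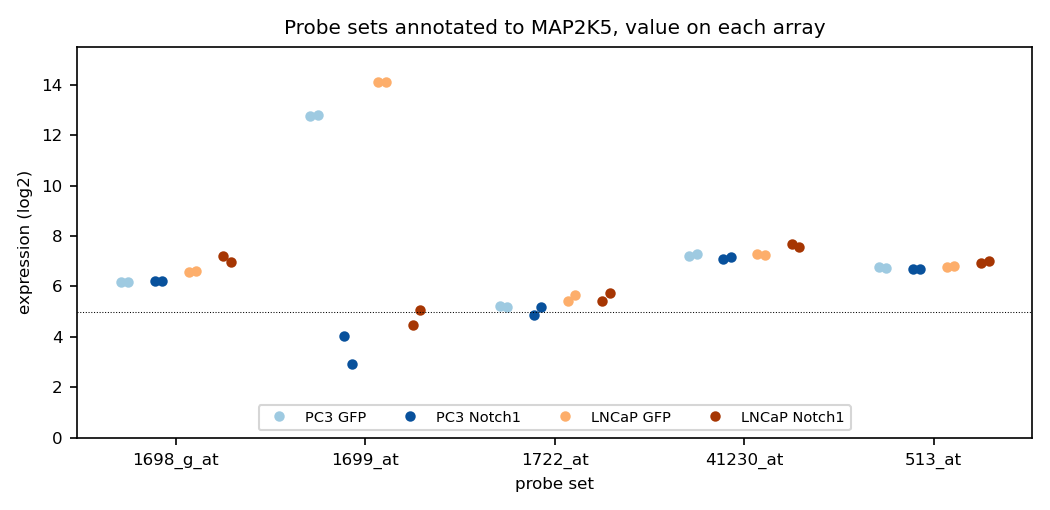
Log2 expression (y axis, from 0) on each array of the 5 probe sets annotated to MAP2K5 (x axis), with colours for the 4 groups, 2 arrays each, and a dotted line at log2 5. The second probe set from the left drops from 12.75 to 14.11 with GFP to 2.94 to 5.08 with Notch1, and the other 4 stay within 4.89 to 7.67 in all groups.

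Proteins of cell junctions and of the membrane skeleton were among the remaining falls. ANK3, ankyrin-G, which ties membrane proteins to the spectrin skeleton, was 7.97 and 8.25 in PC3 GFP, 6.71 and 6.86 in PC3 Notch1, 9.30 and 9.45 in LNCaP GFP, and 7.74 and 7.58 in LNCaP Notch1. It fell 2.87-fold on the average (log2 -1.52, SE 0.10, adjusted p = 4.92e-06), and its other probe set gave -0.65 and -1.08. CLDN4, a claudin of tight junctions, was 10.98 and 11.06 in PC3 GFP, 10.11 and 10.06 in PC3 Notch1, 10.28 and 10.16 in LNCaP GFP, and 9.01 and 9.11 in LNCaP Notch1. It fell 2.07-fold (log2 -1.05, SE 0.08, adjusted p = 1.64e-05), by like amounts in the lines (difference -0.23, 95% interval -0.59 to 0.13). CLDN3 fell by 0.66 in PC3 and 1.36 in LNCaP. PKP4, a plakophilin-related protein of junctions, fell by 0.73 and 1.11 on one probe set, whereas its other probe set gave -0.31 and -0.08 and was not called.

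Secreted proteins and receptors fell as well. GDF15, a stress-induced member of the TGF-beta superfamily, was 10.96 and 10.72 in PC3 GFP, 9.38 and 9.35 in PC3 Notch1, 13.07 and 12.99 in LNCaP GFP, and 12.19 and 12.01 in LNCaP Notch1. The lines lay far apart in level, and in each the Notch1 arrays were lower, for an averaged fall of 2.31-fold (log2 -1.21, SE 0.09, adjusted p = 1.32e-05). COL5A2, a chain of fibrillar collagen V, was 9.94 and 10.30 in PC3 GFP, 7.93 and 7.93 in PC3 Notch1, 9.61 and 9.61 in LNCaP GFP, and 8.93 and 8.99 in LNCaP Notch1. Its fall was larger in PC3 (-2.19) than in LNCaP (-0.65), a called difference of 1.55 (adjusted p = 0.00052). RAMP1, a partner of the calcitonin receptor-like receptor, was 8.62 and 8.72 in PC3 GFP, 8.16 and 7.75 in PC3 Notch1, 7.31 and 7.32 in LNCaP GFP, and 5.06 and 4.75 in LNCaP Notch1, the opposite order of effect (-0.72 in PC3, -2.41 in LNCaP).

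**Figure D4:**
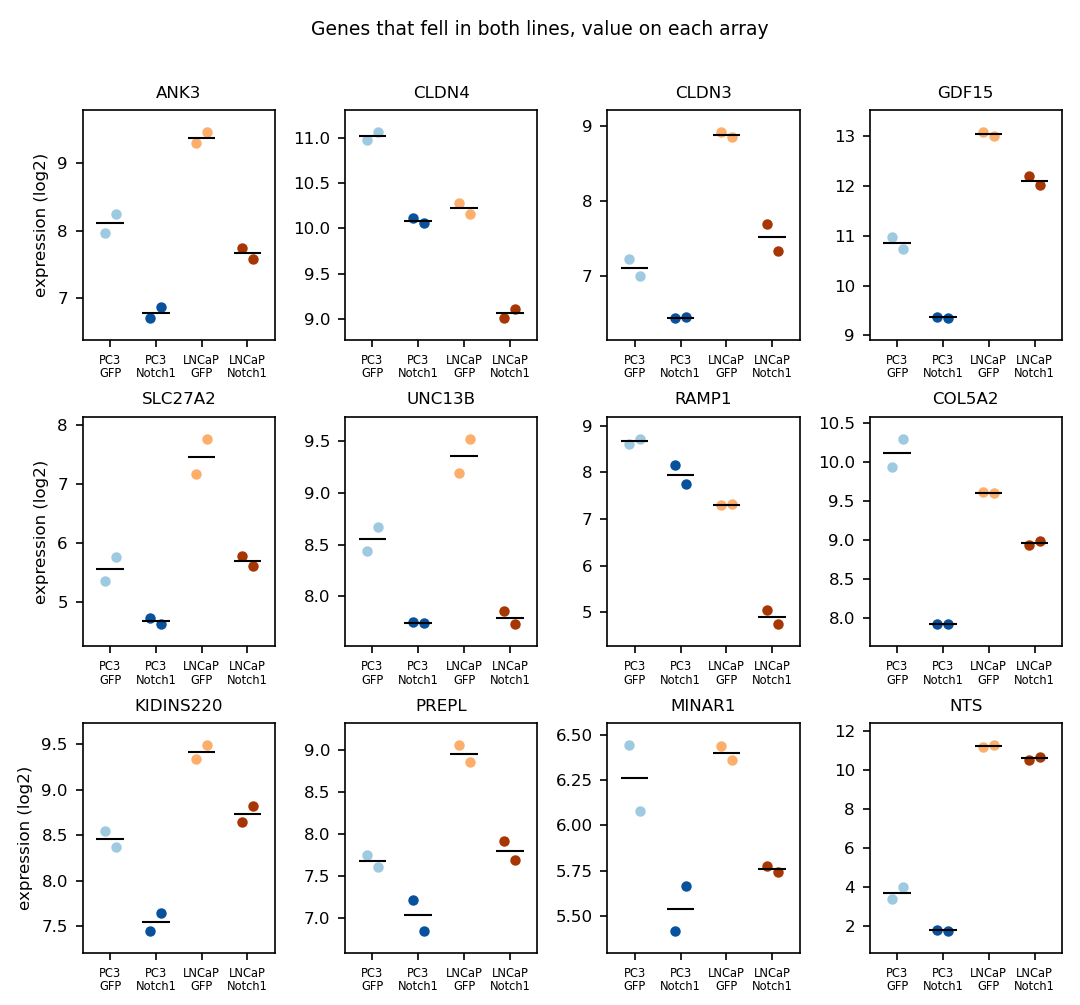
Log2 expression (y axis, a scale for each gene) of 12 genes with a common fall on each of the 8 arrays, by group (x axis); points are arrays and horizontal lines are means of 2 arrays. Both Notch1 arrays lie below both GFP arrays of the same line in all 12, with MINAR1 and KIDINS220 shifted by similar amounts in both lines, RAMP1 farther in LNCaP and COL5A2 farther in PC3.

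SLC27A2, an acyl-CoA synthetase of very long chain fatty acids, fell by 0.88 in PC3 and 1.77 in LNCaP, and UNC13B, a vesicle priming protein, by 0.81 and 1.56. KIDINS220, a scaffold of neurotrophin receptors, fell by 0.91 and 0.68, and PREPL, a serine hydrolase related to prolyl endopeptidase, by 0.65 and 1.15. MINAR1 fell by 0.72 and 0.64. CCDC85B fell by 0.69 and 1.17 on one probe set, while its other gave -0.33 in PC3 and 0.22 in LNCaP. Falls of 2-fold in both lines also occurred in genes left out of these 14 for a low signal, among them SEMA3C, a secreted semaphorin, at -1.01 in PC3, where all readings were under log2 5, and -2.21 in LNCaP, where it fell from 9.70 and 10.0 to 7.53 and 7.76 (chosen after its values were seen).

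Genes with several probe sets allowed the common response to be read from other probes. Over all tested probe sets 6.78% were common rises and 5.32% common falls, 8.33% were called higher and 6.67% lower, and the median averaged change was -0.03. Of 406 genes with a common rise that met the signal and array criteria for naming, 155 had a further probe set. Of their 242 other probe sets 196 were higher on the average, 79 were common rises, and 1 was called lower. Among 276 genes with a common fall, 82 had a further probe set, and of 131 other probe sets 114 were lower, 33 were common falls and 2 were called higher. The genes were picked for their direction on these same arrays. Probe sets of 1 gene share its RNA on the same arrays and are not replicates.

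Genes of DNA replication and S phase had the largest share of common rises among the 27 lists examined. Of 42 measured genes 27 were common rises and none was a common fall, beside 7.16% and 5.64% of all genes, and the list median was 0.47 (0.17 in PC3, 0.78 in LNCaP). In PC3 alone 5 of them were called higher and in LNCaP 33, beside 359 and 697 of all 8226 genes. RRM2, a subunit of ribonucleotide reductase, was 5.86 and 5.90 in PC3 GFP, 6.83 and 6.83 in PC3 Notch1, 4.74 and 4.77 in LNCaP GFP, and 7.18 and 7.15 in LNCaP Notch1. Replicate arrays nearly coincided in each group, and RRM2 rose by 0.95 in PC3 and 2.41 in LNCaP (average 1.68, SE 0.08, adjusted p = 5.08e-07). CCNE2, cyclin E2 of the entry into S phase, rose by nearly equal amounts, 0.66 and 0.76 (difference 0.10, 95% interval -0.38 to 0.59). The other genes of this list called in each line were CDC6, a licensing factor, at 0.55 and 1.99, MCM6, a subunit of the replicative helicase, at 0.48 and 0.67, and DUT, which clears dUTP, at 0.48 and 0.62, all 3 named after their values were seen.

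Genes of G2 and mitosis had the largest averaged list median, 0.78, yet were mostly not a common response. Of 41 measured genes 35 were called higher on the average, but 20 of these had opposite signs in the lines and 15 were common rises. The list median was -0.04 in PC3 and 1.53 in LNCaP. In PC3 1 gene was called and in LNCaP 35, all higher, beside 359 and 697 of all 8226 genes. The difference between lines was called for 34 genes, beside 1250 of all genes. The gene called in each line was CDC25B, a phosphatase that activates cyclin-dependent kinases, which rose by 0.81 and 1.01. SMC4, a condensin subunit, had a common rise of 0.94 with replicates far apart at 5.10 and 6.36 on the PC3 GFP arrays, and the value was 0.62 without PC3 GFP replicate 1.

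Other cell cycle lists gave fewer members. The counts here stand beside common rises in 7.16% and common falls in 5.64% of all genes. Of 28 genes of G1 cyclins, CDKs and E2F, 5 were common rises and 2 common falls (median 0.00), among them SKP2, a ubiquitin ligase subunit that targets CDKN1B, at 0.63 in PC3 and 0.78 in LNCaP. The other SKP2 probe set gave 0.05 and -0.18. Of 7 CDK inhibitors 2 were common rises (median 0.09), and neither was called in both lines. CDKN1A, the inhibitor p21, was 6.45 and 6.36 in PC3 GFP, 8.28 and 8.00 in PC3 Notch1, 11.09 and 11.17 in LNCaP GFP, and 11.29 and 11.16 in LNCaP Notch1, so that its averaged rise of 0.92 came from PC3 (1.74, against 0.10 in LNCaP, adjusted p = 0.693). CDKN2B gave 0.07 in PC3 and 0.85 in LNCaP. Among 20 p53 target genes 6 were common rises and 1, GDF15, a common fall (median 0.17), with SFN, an epithelial 14-3-3 protein, rising by 0.64 and 1.75. Histone genes gave 2 common falls among 11, H2AC8 (-0.47 and -0.65) and H2BC21 (-0.23 and -1.23), with a median of -0.01. H2BC21 was under log2 5 on all PC3 arrays (4.53 to 4.97).

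Prostate luminal and androgen response genes gave the most common falls of the 27 lists, but were called lower in LNCaP and not in PC3. Of 18 measured genes 10 were common falls and none was a common rise, beside 5.64% and 7.16% of all genes. The list median was -0.46 (-0.16 in PC3, -0.71 in LNCaP). None of the genes was called in PC3 alone, and 11 were called lower in LNCaP, beside 836 of all 8226 genes. Of the 10 common falls, 7 had a called difference between lines. In PC3 the means of ABCC4, UGT2B17 and MSMB were under log2 5 in both groups, like those of ACP3 and KLK2. STK39 and TMPRSS2 changed by -0.03 and -0.09 in PC3, and KRT18 and UGT2B15 by -0.29 and -0.30. These genes, apart from ACP3 and KLK2, were named after their values were seen. KLK3, which encodes prostate-specific antigen, was 7.93 and 7.63 in PC3 GFP, 7.18 and 7.47 in PC3 Notch1, 9.38 and 9.16 in LNCaP GFP, and 8.54 and 8.50 in LNCaP Notch1, an averaged fall of 0.60 (SE 0.11, adjusted p = 0.00335). Of its 5 other probe sets 4 were common falls. ACP3, prostatic acid phosphatase, was under log2 5 on all PC3 arrays (2.12 to 2.50) and fell in LNCaP from 7.71 and 7.92 to 5.83 and 5.98, and KLK2, a related kallikrein, gave -0.14 in PC3, where it was under log2 5 on all arrays, and -1.51 in LNCaP. Among 5 LNCaP identity genes 3 were common falls (median -0.45), and among 15 PC3 identity genes 5 were common rises (median 0.36), including EGFR, the epidermal growth factor receptor (0.34 and 0.56), and PLAU, the urokinase protease (0.91 and 0.27). PLAU was under log2 5 on all LNCaP arrays (3.90 to 4.45).

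Epithelial lists moved in both directions, and over all genes 7.16% were common rises and 5.64% common falls. Of 20 basal and squamous genes 6 were common rises (median 0.10), with SFN and KRT16, a keratin of activated squamous epithelium (1.38 in PC3 and 0.39 in LNCaP, where adjusted p = 0.0528, or 0.0359 with replicate number as a block). Of 28 mucosal secretory genes 5 were common rises (median -0.03), of which TFF1 and TFF2 had the largest shared change. Of 23 mesenchymal transition genes 5 were common rises (median 0.09), led by SNAI2 and SPARC. Of 23 epithelial junction genes 3 were common rises and 4 common falls (median -0.10), the falls led by CLDN4 and PKP4.

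**Figure D5:**
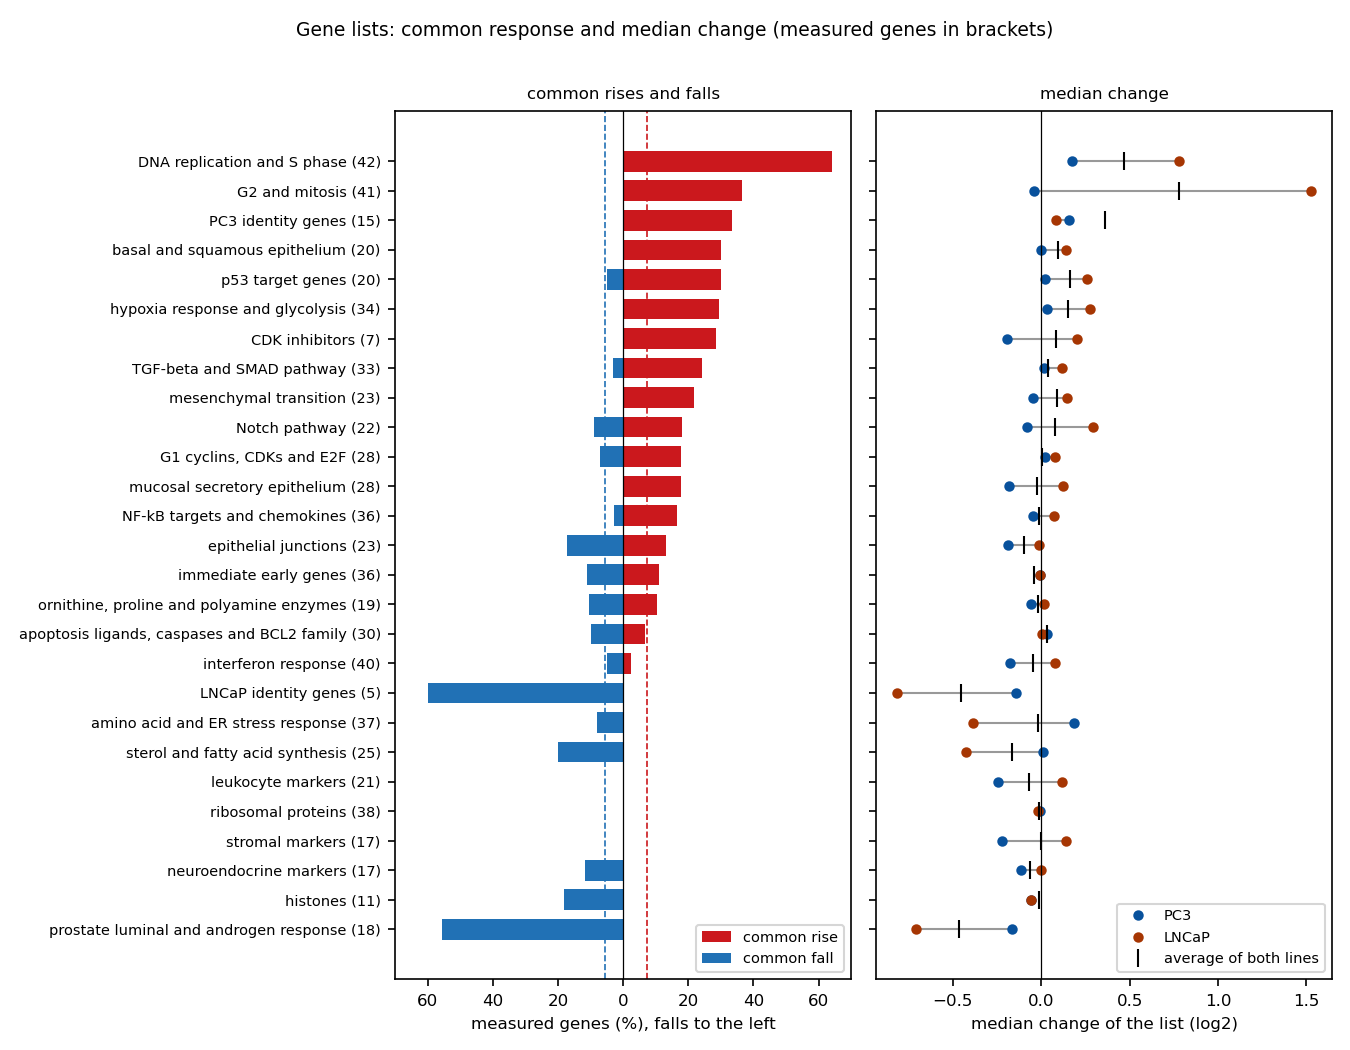
For each gene list (y axis, measured genes in brackets) the left panel plots the percent of measured genes with a common rise (red) or common fall (blue), with dashed lines at 7.16% and 5.64%, the shares over all 8226 genes; the right panel plots the list median of the log2 change in PC3, in LNCaP and averaged. DNA replication and S phase has the longest red bar (27 of 42) and prostate luminal genes a long blue bar (10 of 18), and the G2 and mitosis medians of the lines lie farthest apart (-0.04 and 1.53).

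Among signalling and stress lists, hypoxia response and glycolysis had 10 common rises and no fall in 34 genes (median 0.15). Shares over all genes, to be set beside each list of this paragraph, were 7.16% for common rises and 5.64% for common falls. BHLHE40, a repressor of the clock and hypoxia responses, rose by 0.72 in PC3 and 1.43 in LNCaP, and HIF1A, the oxygen-sensing factor, gave 0.60 and 1.46, of which the PC3 change missed the threshold (adjusted p = 0.0573, or 0.0163 with replicate number as a block). Of 36 NF-kB targets and chemokines 6 were common rises and 1 a common fall (median -0.01), and none was called in each line. MAP3K8, a kinase upstream of NF-kB, gave 0.21 and 1.25, but its readings were near or under log2 5 on all arrays and the averaged change was 0.01 with the floor (adjusted p = 0.717). IL1RN, the interleukin 1 receptor antagonist, was the fall (-0.31 and -0.65). All its PC3 readings were under log2 5, and with the floor the averaged call was lost (adjusted p = 0.108). Of 36 immediate early genes 4 were common rises and 4 common falls (median -0.04), the rises led by CCN1 and BHLHE40.

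Interferon response genes gave 1 common rise and 2 common falls in 40 (median -0.05). These shares, 2.5% and 5%, were under the 7.16% and 5.64% of all genes. The rise was ISG20 (0.44 and 0.29). The falls were TAP2, a peptide transporter, at -0.51 and -0.13, and ISG15, named after its values were seen, at -0.11 and -0.57. ISG20 and TAP2 kept the averaged call in 8 and 7 of 16 alternatives, with adjusted p-values up to 0.154 and 0.191, and both lost it with the floor (adjusted p = 0.133 and 0.128). Of 30 genes of apoptosis ligands, caspases and the BCL2 family 2 were common rises and 3 common falls (6.67% and 10%, median 0.03). MCL1, a survival protein of the BCL2 family, gave -0.48 in PC3 and -0.46 in LNCaP, close to equal, and CASP4, an inflammatory caspase, -0.70 and -0.40. Amino acid and ER stress response genes gave no common rise and 3 common falls in 37 (median -0.02), with WARS1 and EPRS1, both tRNA synthetases, at averaged changes of -0.40 and -0.33. In this list 7 genes were called higher in PC3 and 14 lower in LNCaP, beside 359 and 836 of all 8226 genes. Sterol and fatty acid synthesis gave 5 common falls and no rise in 25 (median -0.17), among them PMVK, a kinase of the mevalonate pathway (-0.31 and -0.56), and ELOVL6, a fatty acid elongase (-0.21 and -0.51). Of 19 ornithine, proline and polyamine enzymes 2 rose and 2 fell in common (median -0.02), with OAT, ornithine aminotransferase, at 0.45 in PC3 (adjusted p = 0.0829, or 0.0368 with replicate number as a block) and 3.42 in LNCaP, and GLUL, glutamine synthetase, at 0.30 and 0.77. OAT was under log2 5 on the LNCaP GFP arrays (4.08 and 4.11), and its LNCaP change was 2.52 with the floor. None of 38 ribosomal protein genes was called on the average or in a line (median -0.01).

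Identity of the cells was checked on the GFP arrays. All 5 LNCaP identity genes were higher in LNCaP GFP than in PC3 GFP, and 12 of 15 PC3 identity genes were higher in PC3 GFP. Markers of cell types that a pure culture should lack were compared between Notch1 and GFP, which cannot show whether the cultures were pure. None of 21 leukocyte markers and none of 17 stromal markers was a common rise or fall (medians -0.07 and 0.00), with 9 and 6 of them under log2 5 in all groups. ACTA2, a stromal marker named after its values were seen, was called higher on the average (0.51, adjusted p = 0.00408), at -0.25 in PC3 and 1.28 in LNCaP. Of 17 neuroendocrine markers 8 were under log2 5 in all groups, and 2 were common falls (11.8%, beside 5.64% of all genes, median -0.06). SCGN, named after its values were seen, was called higher on the average (1.70, adjusted p = 1.94e-05) with opposite signs, at -0.25 in PC3 and 3.66 in LNCaP. NTS, the peptide neurotensin, fell from 3.38 and 3.99 to 1.77 and 1.75 in PC3, all under log2 5, and from 11.17 and 11.26 to 10.53 and 10.69 in LNCaP, and DDC, which makes dopamine and serotonin, gave -0.11 and -0.78. DDC was under log2 5 on all PC3 arrays (2.76 to 2.98). The summed level of a marker list was 10.0 to 10.2 for leukocyte, 11.01 to 11.6 for stromal and 11.996 to 12.3 for neuroendocrine markers over the groups (log2 of the sum). Array medians were 5.95 to 6.01 in PC3 and 6.28 to 6.36 in LNCaP, and 31.9% to 37.6% of probe sets lay under log2 5. For GAPDH the 3′ control probes minus the 5′ ones, which reads how intact the RNA was, gave 0.02 with GFP and -0.06 with Notch1 in PC3, and 0.56 and 0.38 in LNCaP (log2, means of 2 arrays). It was lower with Notch1 in both lines, and its part in the common response was not tested.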

How the data were processed

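RNA from 4 groups of 2 arrays (PC3 and LNCaP, GFP or activated Notch1, grouped and numbered by the sample titles) was hybridised to Affymetrix U95Av2 arrays. The authors summarised the raw array files with RMA (background correction, quantile normalization and a summary over each probe set's probes) and deposited log2 expression values, 1 per probe set and array. Tool versions, and whether the lines were normalized jointly, are not stated in these sources. Precision is limited by having 2 arrays a group. The deposited log2 values were analysed as they stood. The table held 12625 probe sets, of which 67 AFFX controls were left out. Of the 12558 tested probe sets, 10943 carried 1 symbol in the platform annotation, 545 several and 1070 none, and only the first kind was used to name genes (8226). Entrez identifiers of 10934 probe sets were found in the RefSeq table of GRCh38.p14, with 0 symbols differing. NOTCH1 and HEY1 were not analysed here.

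The 4 group means were fitted to all 8 arrays in limma 3.58.1 (R 4.3.3), with the contrasts PC3, LNCaP, their average and their difference (LNCaP minus PC3), with eBayes moderation (4 residual and 6.37 prior degrees of freedom), two-sided p-values and Benjamini-Hochberg adjustment over all tested probe sets. A call is an adjusted p under 0.05, and log2 5 served as the mark of low signal. The scripts were tested on simulated data.

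Genes named are HES1 and SMAD3, the 14 largest shared rises and 14 largest shared falls (1 symbol, called on the average, same sign, both Notch1 arrays outside both GFP arrays in each line, and a mean of at least log2 5 in the higher group of each line), ranked by the smaller of the lines' changes, and up to 2 common members of each of 27 gene lists with the largest shared change. Where a list gene had several probe sets, the one brightest on average stood for it. The members, lists and alternatives were chosen with earlier results of these data known. Lists are described by counts and medians and were not tested.

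Replicate numbers 1 and 2 occur in all groups. Deviations of same-numbered arrays from their group means correlated positively in all 6 pairs of groups (r = 0.12 to 0.55 over probe sets), although what a number stands for is not stated. The main fit did not pair the arrays, and replicate number entered as a block only in an alternative. The alternatives were median centring, quantile normalization, the log2 5 floor, a filter at the 25th percentile of mean level, averaging the probe sets of each gene, an additive model of line and Notch1, eBayes with trend and robust settings, the replicate block, and leaving out each array in turn.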

Additional observations from a re-analysis of the deposited data

Results flagged for a closer look

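The change with Notch1 differed between the lines (LNCaP change minus PC3 change, tested as a contrast in limma at an adjusted p under 0.05) for 26 of the 64 named probe sets, 17 of them named for a common rise and 9 for a common fall. Of the 26, 15 stayed past the threshold whichever array was left out, 15 with values under log2 5 raised to log2 5, and all 26 with replicate number as a block.

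Among the rises larger in LNCaP, the difference was 2.98 for OAT, 2.41 for GSN, 1.75 for SNAI2, 1.74 for TFF3, 1.46 for RRM2, 1.34 for TFF1, 1.24 for SERPINI1, 1.11 for SFN, 1.04 for MAP3K8, 0.99 for ADA, 0.86 for HIF1A and 0.78 for CDKN2B. With the floor the difference was 2.07 for OAT, 2.03 for GSN, 1.22 for SNAI2, 1.22 for RRM2 and 0.03 for MAP3K8. Among the rises larger in PC3, it was -1.64 for CDKN1A, -1.10 for IGFBP3, -0.99 for KRT16, -0.84 for SMAD3 and -0.60 for TFF2. The TFF2 difference missed the threshold whichever array was left out. Of the other rises, the differences of SNAI2, MAP3K8, ADA, HIF1A, CDKN2B and SMAD3 missed it in some omissions.

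Among the falls larger in LNCaP, the difference was -1.70 for RAMP1, -1.58 for ACP3, -1.37 for KLK2, -1.0 for H2BC21, -0.76 for UNC13B, -0.70 for CLDN3 and -0.67 for DDC. Of these, KLK2, UNC13B, CLDN3 and DDC missed the threshold in some omissions. COL5A2, at 1.55, and NTS, at 1.33, fell more in PC3. NTS was under log2 5 on all PC3 arrays, and with the floor its difference was -0.60 (adjusted p = 0.0308), the opposite direction.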

How the results depend on the processing

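With values under log2 5 raised to log2 5, 647 probe sets were higher and 538 lower on the average, 407 and 311 were common rises and falls, 51 and 20 were called higher and lower in each line, and 220 common members had a called difference between lines. The additive model, which leaves the difference between lines in the residual, called 203 higher and 90 lower, and all of them were common rises (203) and falls (90). With the replicate block 225 were higher and 91 lower in each line and 710 common members had a called difference, and the block changed no averaged call of a named gene. It brought the PC3 change of SKP2, ISG20, TAP2, WARS1, HIF1A and OAT and the LNCaP change of KRT16, SMC4, MCL1 and WARS1 past the threshold, and the line difference of 8 more named genes. With 1 array left out, the averaged effect ran from 672 to 1160 higher and 484 to 931 lower, common rises from 546 to 929, common falls from 396 to 750, those higher in each line from 48 to 224 and lower from 18 to 61, and common members with a called difference from 273 to 553. Counts moved by over 1.5 times without PC3 Notch1 replicate 1 or 2, LNCaP Notch1 replicate 1 or 2, and, for calls in each line, PC3 GFP replicate 1 (82 higher, 26 lower) or 2 (224 higher). With the floor the prior degrees of freedom were 0.39, against 6.37 in the main fit, and these enter every p-value. MCL1 and WARS1, with no reading under log2 5, lost their averaged call although their averaged changes stayed at -0.47 and -0.40. The causes of the shifts with the floor, the block and the omissions were not tested. Of 64 named probe sets 40 kept their averaged call under all 16 alternatives, and SNAI2 under the 15 that tested it, since the filter on mean level removed it. The other 23 lost it under some, 22 of them under the additive model, 13 with the floor, and up to 7 as 1 array was left out, and none reversed. With the floor the 13 were CDKN2B, SKP2, SMC4, H2AC8, MCL1, CASP4, IL1RN, MAP3K8, ISG20, TAP2, WARS1, PMVK and EGFR. Centring and quantile normalization moved the share of averaged calls that were higher from 55.5% to 52.1% and 52.9%, and the additive model gave 69.3%. Precision is limited by 2 arrays a group and by readings near background.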
